A study of Mus musculus with 6 samples.

Results

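A set of 10 genes through which endothelial cells sense and answer blood flow was followed in embryonic mouse skin that lacked Tie1: Klf2, Klf4, Nos3, Piezo1, Foxo1, Mapk7, Heg1, Ccm2, Krit1 and Pdcd10. They were taken by name, with earlier results of these data known, and all 10 were found among the 19131 genes of each table. The first group was skin of Tie1 knockout embryos and the second skin of control embryos, both on the C57BL/6N background at embryonic day 17.5 (E17.5), with 3 libraries each. All titles write ECD after Tie1, without saying what it stands for. The labels also do not state which cells or exons the knockout affects, whether each library came from its own embryo or litter, or what part of the body was sampled. The p-values thus reflect how far these samples spread, which may be technical. The assay was RNA-seq of whole skin, so vessels are read together with the epidermis, dermis, muscle and blood around them.

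Endothelial cells read the drag of flowing blood through membrane sensors such as the ion channel PIEZO1. Steady flow activates the kinase chain MEKK3, MEK5 and ERK5 (the product of Mapk7), which acts on MEF2 transcription factors to switch on Klf2 and Klf4, and these in turn raise genes of quiescent vessels such as Nos3, the endothelial nitric oxide synthase. The membrane protein HEG1 and the cerebral cavernous malformation (CCM) complex of KRIT1, CCM2 and PDCD10 hold MEKK3 in check. Loss of a CCM gene in endothelium is known to raise Klf2 and Klf4 and to cause malformed, leaky veins in the brain. FOXO1, held out of the nucleus by AKT, is a transcription factor that drives Angpt2 and links this network to TIE2 signalling.

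The stretch before the start of Klf2 is shown because it holds a match to the consensus that MEF2 factors bind, with that of Klf4 beside it for comparison. These are the 250 bases upstream of the RefSeq gene start in GRCm38.p6, 5′ to 3′ in the direction of the gene, chr8:72318812-72319061 on the plus strand and chr4:55532476-55532725 on the minus strand. Capitals mark a match to the MEF2 consensus, taken here as CTAWWWWTAR, where W is A or T and R is A or G.
Klf2: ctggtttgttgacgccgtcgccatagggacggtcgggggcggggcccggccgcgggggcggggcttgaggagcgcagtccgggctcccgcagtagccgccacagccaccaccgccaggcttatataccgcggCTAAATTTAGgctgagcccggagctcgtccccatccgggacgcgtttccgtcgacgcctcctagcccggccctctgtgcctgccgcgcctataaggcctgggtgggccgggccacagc
Klf4: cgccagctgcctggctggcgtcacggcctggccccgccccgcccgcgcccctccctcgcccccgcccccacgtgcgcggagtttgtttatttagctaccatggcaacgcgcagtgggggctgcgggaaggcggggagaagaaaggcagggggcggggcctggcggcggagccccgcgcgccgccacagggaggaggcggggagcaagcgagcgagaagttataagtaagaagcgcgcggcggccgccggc
The Klf2 match, CTAAATTTAG, starts 118 bases before the gene start, and the Klf4 stretch holds 0 matches. Searched on both strands, 1.69% of the 32851 upstream stretches of this length in the RefSeq table hold the MEF2 consensus. Among the 9 of 10 genes matched in that table, Klf2 was the 1 with it. The letters CACCC, the core that KLF factors bind, stood 5 times in the Heg1 stretch and 4 times in each Mapk7 stretch. They stood 1 time in those of Klf2 and Piezo1, and 2 and 0 times in the 2 stretches of Ccm2. Those of Klf4, Foxo1, Krit1 and Pdcd10 held 0, while 52.0% of all stretches held at least 1. The letters TGTTTAC, a FOXO core, were in none of these genes' stretches and in 3.17% of all stretches. A match is a description of letters and not a bound site.

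The libraries held 19826856 to 20591164 estimated reads, and the 10 genes had between 185 (Nos3, knockout 1) and 8969 (Klf4, knockout 1) reads in a library. Tie1 stood at 4.33, 2.63 and 2.26 CPM (reads scaled to library size with TMM factors) in knockout skin and at 58.6, 50.7 and 60.0 CPM in control skin, so each library fitted its label. Endothelial RNA was present in each library: 20 pan-endothelial markers were all detected and summed to 1254 to 1362 CPM in knockout and 1248 to 1467 CPM in control skin, which does not show which cells the reads of the 10 genes came from. Single markers went both ways, 4 of 20 higher and 3 of 20 lower in knockout without overlap, against 7.03% and 6.78% of all genes tested. Erythroid markers summed to 16077 CPM in control 1 and to 6666 to 8945 CPM in the other 5 libraries. A list of 12 immediate early genes (Fos, Junb and others, chosen after the data were seen), which respond within minutes to stimulation and handling, summed to 531 to 632 CPM in knockout and 410 to 525 CPM in control skin. Mural cell markers summed to 694 to 724 CPM in knockout and 586 to 681 CPM in control skin, and adipocyte markers to 120 to 158 CPM in knockout and 184 to 257 CPM in control skin. The immediate early, mural and adipocyte sums thus did not overlap between the groups. Among the mural genes, however, Pdgfrb, Abcc9 and Rgs5 were higher and Cnn1 and Myh11 lower without overlap, and the mean log2 CPM of the mural list overlapped. Beyond the fits named beside a gene, the part of these lists in the values below was not tested.

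None of the 10 genes passed edgeR's quasi-likelihood test at an adjusted p under 0.05 over the 15035 genes tested, a threshold that 0.16% of all genes passed. The gene nearest to it was Nos3, at 0.645 of the control level, followed by Klf2. At an unadjusted p under 0.05 there were 2 of 10 genes, Nos3 and Klf2, against 7.42% of all genes. DESeq2 called 1, Nos3, against 1.24% of all genes in that fit, and limma-voom called 0, against 0.0998%. The groups did not overlap for 2 of 10 genes, against 13.8% of all genes. The first of these, Nos3, was lower in knockout, as in 6.78% of all genes, and the other, Pdcd10, was higher, as in 7.03%. These shares are too close to the background to be read as a result about the 10 genes. The median log2 fold change (knockout over control) was −0.084 for the 10 genes and 0.0038 for all genes tested, with 7 of the 10 below 0 and 3 above.

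**Figure D1:**
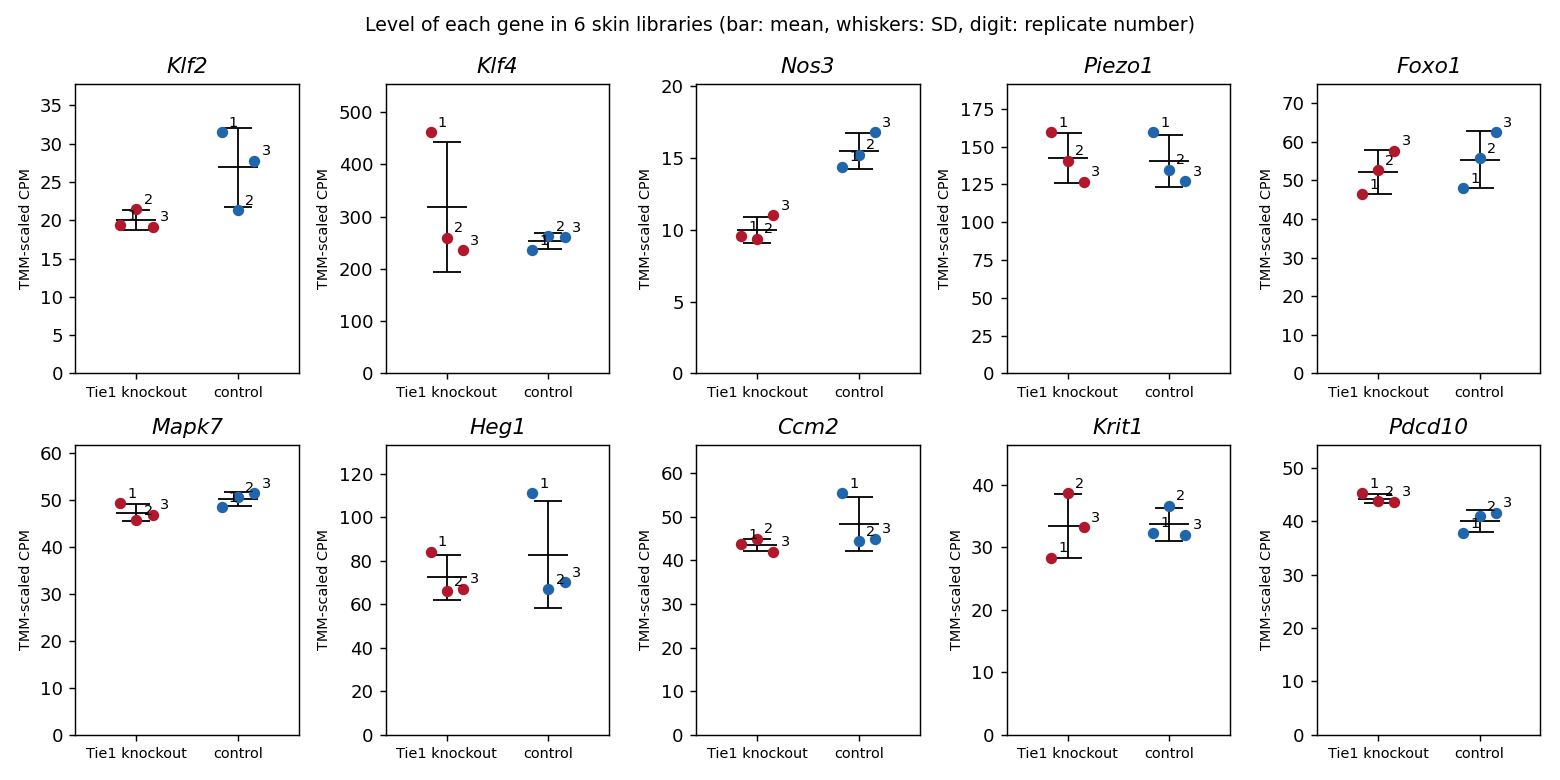
TMM-scaled CPM (y axis, from 0) of each of the 10 genes in 3 Tie1 knockout libraries (red, left) and 3 control libraries (blue, right), with the replicate number beside each point, the mean as a bar and the SD as whiskers. Nos3 is separated, at 9.37 to 11.0 CPM in knockout and 14.4 to 16.8 CPM in control skin, and knockout 1 stands alone for Klf4 at 462 CPM.

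Nos3 (gene 18127, chromosome 5, 24364816 to 24384474, GRCm38.p6) makes the nitric oxide that relaxes vessels and keeps the endothelium quiet. It stood at 9.54, 9.37 and 11.0 CPM in knockout skin, against 14.4, 15.2 and 16.8 CPM in control skin. Each knockout library was below each control library, and the gap of 3.36 CPM between the groups was larger than the range within the knockouts (1.62 CPM) and within the controls (2.43 CPM). The means were 9.97 ± 0.892 and 15.4 ± 1.23 CPM in knockout and control (SD, n = 3 each), a fold of 0.645 with a 95% interval of 0.537 to 0.776 (log2 fold change −0.63, SE 0.11, edgeR adjusted p = 0.135). DESeq2 gave nearly the same fold change, −0.63 with SE 0.15, and an adjusted p of 0.00644. Over 18 alternative settings the log2 fold change of Nos3 lay between −0.71 (without knockout 3) and −0.51 (posterior Hox score as a covariate). The edgeR and limma-voom fits gave adjusted p from 0.0548 to 1. Posterior Hox genes summed to 59.7 to 74.6 CPM in knockout and 37.7 to 72.2 CPM in control skin, so the groups overlapped. With the immediate early score as a covariate, an alternative chosen after the data were seen, the value was −0.70 (SE 0.18).

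In bulk tissue, fewer cells of a type and less RNA per cell cannot be told apart. Nos3 was therefore set against the 20 pan-endothelial markers in each library, as its log2 CPM minus their mean log2 CPM. That value was −2.19, −2.28 and −2.13 in knockout skin and −1.82, −1.56 and −1.50 in control skin. Relative to the markers Nos3 thus kept the separation, with a difference of −0.57 (exact permutation p = 0.1, two-sided, the smallest that 3 against 3 allows; adjusted p = 0.2 over the 4 genes compared this way). Of the markers themselves, Plvap, a protein of endothelial pores, stood at −0.59 (SE 0.077) and Emcn, the gene of endomucin, at −0.52 (SE 0.097) on the log2 fold change scale, near the value of Nos3, and Robo4 stood at 0.40 (SE 0.096). Against Pecam1, Cdh5 and Erg alone the difference was −0.68. With the marker score as a covariate in the edgeR fit, the log2 fold change of Nos3 was −0.62 (SE 0.13, adjusted p = 0.369).

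Nos3 shares 294 bases at its 3′ end with Atg9b, an autophagy gene on the other strand, and no source used here states whether reads were assigned by strand. Atg9b stood at 121, 81.0 and 40.5 CPM in knockout and 84.1, 52.0 and 26.7 CPM in control skin. The Atg9b groups overlapped, with means of 80.9 and 54.2 CPM in knockout and control, the opposite order to Nos3. The lncRNA Gm15587, which also overlaps Nos3 on the other strand, was not analysed here.

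Klf2 (gene 16598, chromosome 8, 72319062 to 72321654) encodes the flow-induced factor that restrains inflammation and clotting in endothelium and is also expressed in lymphocytes. It stood at 19.4, 21.5 and 19.1 CPM in knockout skin, against 31.5, 21.3 and 27.8 CPM in control skin. The groups overlapped, because control 2 lay at the knockout level while control 1 and control 3 lay above each knockout library. Knockout skin averaged 20.0 ± 1.28 CPM and control skin 26.9 ± 5.15 CPM (SD, n = 3 each), a fold of 0.744 with a 95% interval of 0.588 to 0.941 (log2 fold change −0.43, SE 0.14, edgeR adjusted p = 0.533). Leaving out control 1 moved the log2 fold change to −0.30, and leaving out both libraries numbered 1 moved it to −0.28. The posterior Hox score as a covariate moved it to −0.60 (SE 0.19). With the erythroid and the immediate early scores as covariates, both chosen after the data were seen, it was −0.32 (SE 0.14) and −0.50 (SE 0.23). Macrophage and leukocyte markers, 9 genes in the tables, summed to 362 to 408 CPM in knockout and 266 to 366 CPM in control skin, most of it from the macrophage genes Mrc1 and Csf1r. The pan-leukocyte gene Ptprc averaged 10.8 and 13.4 CPM, and the T cell gene Cd3g 0.314 and 0.593 CPM, in knockout and control, both lower in knockout without overlap (edgeR adjusted p = 0.696 and 0.73). Cd3g had only 2, 7 and 10 reads in knockout and 11, 11 and 14 in control libraries. The macrophage gene Cd68 went the other way without overlap, at 46.1 and 29.1 CPM in knockout and control (edgeR adjusted p = 0.43). The part of these genes in the Klf2 value was not tested. Relative to the pan-endothelial markers Klf2 differed by −0.35 (−1.18, −1.09 and −1.33 in knockout, −0.69, −1.08 and −0.78 in control; exact permutation p = 0.1, adjusted p = 0.2), and control 2 then lay just above the highest knockout library.

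Klf4 (gene 16600, chromosome 4, 55527137 to 55532475) is induced by flow together with Klf2, but in late embryonic skin it is best known as the barrier factor of the outer epidermis. It stood at 462, 260 and 236 CPM in knockout skin, against 236, 263 and 261 CPM in control skin. Knockout 1 was far above the other 5 libraries, which spanned only 236 to 263 CPM. Knockout skin averaged 319 ± 124 CPM and control skin 253 ± 15.3 CPM (SD, n = 3 each), with a log2 fold change of 0.33 (SE 0.26, 95% interval of the fold 0.820 to 1.94, edgeR adjusted p = 0.814). Leaving out knockout 1 turned it to −0.031, so the sign of the Klf4 value rested on that library. Suprabasal epidermis markers, 11 genes in the tables, summed to 29349 CPM in knockout 1, 22781 and 26387 CPM in the other knockouts and 18874 to 32753 CPM in the controls, most of it from Krt1 and Krt10. The mean log2 CPM of the list was highest in knockout 1, at 9.94 against 9.55 to 9.84 in the other 5 libraries. Lor, the gene of the cornified envelope protein loricrin, stood at 5058 CPM there and at 1529 to 2540 CPM in the others. Flg and Tgm3 of the same list were instead lowest in knockout 1. Flg stood at 504 CPM there and at 1450 to 2194 CPM in the others, Tgm3 at 44.6 and at 47.4 to 110 CPM. With the suprabasal score as a covariate the Klf4 value was 0.15 (SE 0.16). The immediate early genes were highest in knockout 1 too, at 632 CPM, and with their score as a covariate, an alternative chosen after the data were seen, the Klf4 value was −0.17 (SE 0.36).

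Per kilobase of transcript, Klf4 was the most abundant of the 10 genes, at 105 ± 41.1 CPM per kb in knockout and 83.6 ± 5.05 CPM per kb in control skin. Nos3 was the lowest, at 2.41 ± 0.216 and 3.74 ± 0.298 CPM per kb in knockout and control. On the same scale Klf2 stood between them at 10.8 ± 0.693 in knockout and 14.6 ± 2.79 CPM per kb in control skin (SD, n = 3 each). Transcript lengths were those of the longest GENCODE transcript paired with a RefSeq mRNA of the gene.

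The genes with the most similar profile over the 6 libraries were looked up among the 14241 genes averaging 1 CPM or more, as a description only, since the 6 points share depth and tissue mixture. Being picked for likeness, these genes necessarily follow the pattern of the gene they were matched to. Nearest to Nos3 were Dtx1, a Notch pathway ubiquitin ligase (Pearson r = 0.997), Bub3, a mitotic checkpoint protein (0.993), and Homer3 (0.992). Dtx1 stood at 1.49, 1.59 and 2.40 CPM in knockout and 6.22, 6.44 and 10.2 CPM in control skin (log2 fold change −2.05, edgeR adjusted p = 0.0586). Nearest to Klf2 were Ispd (0.984), Nlrc5 (0.983) and Tmem100 (0.980), an endothelial gene downstream of BMP and ALK1 signalling. Tmem100 stood at 25.2, 25.0 and 24.7 CPM in knockout and 38.4, 26.7 and 35.1 CPM in control skin, so it shared with Klf2 the low value of control 2. Nearest to Klf4 were Serpinb7, a serpin of the epidermis (0.999), Agpat5 (0.996) and Ttc39b (0.995), and Serpinb7 likewise stood out in knockout 1 at 102 CPM, against 41.0 to 48.7 CPM in the other 5 libraries.

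**Figure D2:**
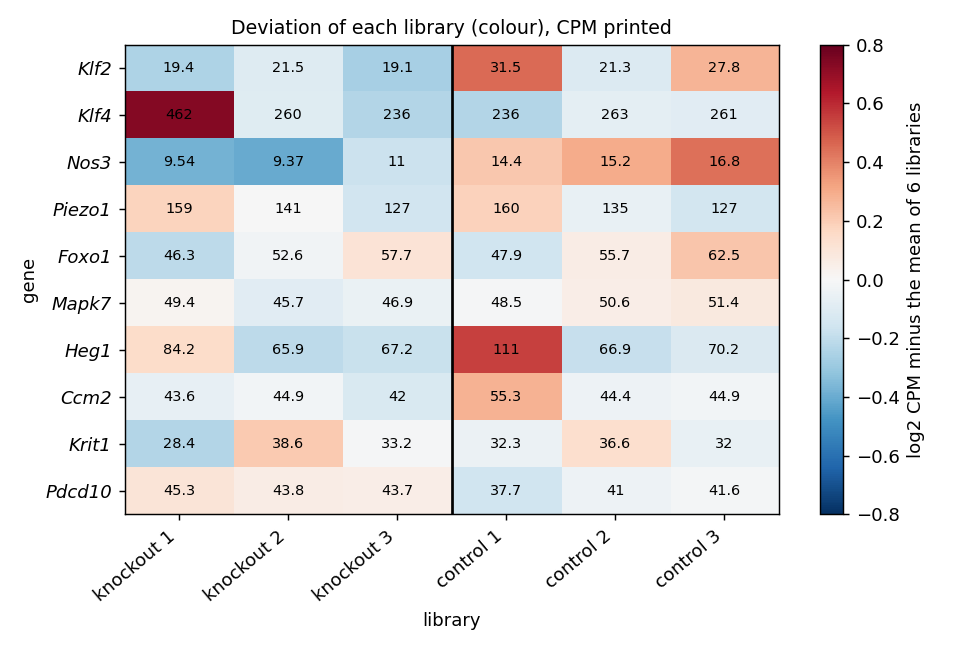
The 10 genes (rows) in each library (columns, knockouts left of the line, controls right), coloured by log2 CPM minus the gene's mean over the 6 libraries, with the CPM printed in each cell. Control 1 has the highest value of Klf2, Piezo1, Heg1 and Ccm2, and knockout 1 the highest of Klf4 and Pdcd10.

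Upstream of the KLF factors, Piezo1 (gene 234839, chromosome 8, 122481698 to 122551329), the stretch-gated channel, was nearly equal in the groups. It stood at 159, 141 and 127 CPM in knockout and 160, 135 and 127 CPM in control skin. Both groups covered the same range, and the spread within a group was far larger than the difference of the means. The fold was 1.01 with a 95% interval of 0.840 to 1.22 (edgeR adjusted p = 0.983), so folds within that interval remained compatible with the data. Piezo1 shares 1395 bases with Ctu2 on the other strand, whose mean was 16.8 CPM in knockout skin, against 17.0 CPM in controls.

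Mapk7 (gene 23939, chromosome 11, 61488812 to 61494267), the gene of ERK5, varied least among the 10 over the 6 libraries, its highest value being 1.13 times its lowest. It stood at 49.4, 45.7 and 46.9 CPM in knockout and 48.5, 50.6 and 51.4 CPM in control skin, and the groups overlapped through knockout 1. The fold was 0.944 (95% interval 0.849 to 1.05, edgeR adjusted p = 0.812). RNA levels say nothing of ERK5 phosphorylation.

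Foxo1 (gene 56458, chromosome 3, 52268337 to 52350109) stood at 46.3, 52.6 and 57.7 CPM in knockout and 47.9, 55.7 and 62.5 CPM in control skin. The groups overlapped, and their ranges largely coincided. The fold was 0.943 (95% interval 0.776 to 1.14, edgeR adjusted p = 0.901).

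Heg1 (gene 77446, chromosome 16, 33684384 to 33771576), the membrane anchor of the CCM complex, stood at 84.2, 65.9 and 67.2 CPM in knockout and 111, 66.9 and 70.2 CPM in control skin. Both libraries numbered 1 were high and the other 4 lay within 65.9 to 70.2 CPM. The fold was 0.876 with a wide 95% interval of 0.611 to 1.25 (log2 fold change −0.19, SE 0.21, edgeR adjusted p = 0.875). Leaving out control 1 turned the log2 fold change to 0.079, and leaving out both libraries numbered 1 gave −0.042. With the erythroid score as a covariate, also chosen after the data were seen, the Heg1 value was 0.054 (SE 0.064).

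Of the 3 CCM complex genes, Ccm2 (gene 216527, chromosome 11, 6546887 to 6596761), the scaffold that binds MEKK3, stood at 43.6, 44.9 and 42.0 CPM in knockout and 55.3, 44.4 and 44.9 CPM in control skin. Control 1 alone lay outside 42.0 to 44.9 CPM. The fold was 0.902 (95% interval 0.769 to 1.06, log2 fold change −0.15, edgeR adjusted p = 0.779), and without control 1 the log2 fold change was −0.038.

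Krit1 (gene 79264, chromosome 5, 3803156 to 3844515), which links HEG1 and RAP1 to the complex, stood at 28.4, 38.6 and 33.2 CPM in knockout and 32.3, 36.6 and 32.0 CPM in control skin. The control values lay inside the knockout range. The fold was 0.992 (95% interval 0.814 to 1.21, edgeR adjusted p = 0.991).

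Pdcd10 (gene 56426, chromosome 3, 75516490 to 75556852), the CCM protein that binds STE20-type kinases, stood at 45.3, 43.8 and 43.7 CPM in knockout and 37.7, 41.0 and 41.6 CPM in control skin. The groups did not overlap, in the opposite direction to Nos3. The difference was small, a fold of 1.10 with a 95% interval of 0.988 to 1.23 (log2 fold change 0.14, SE 0.068, edgeR adjusted p = 0.694). Per kilobase of transcript, Pdcd10 and Ccm2 stood at 23.0 ± 0.453 and 23.4 ± 0.786 CPM per kb in knockout skin, against 20.8 ± 1.08 and 25.9 ± 3.32 CPM per kb in control skin. Krit1 was lower, at 5.98 ± 0.921 and 6.03 ± 0.466 CPM per kb in knockout and control (SD, n = 3 each).

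**Figure D3:**
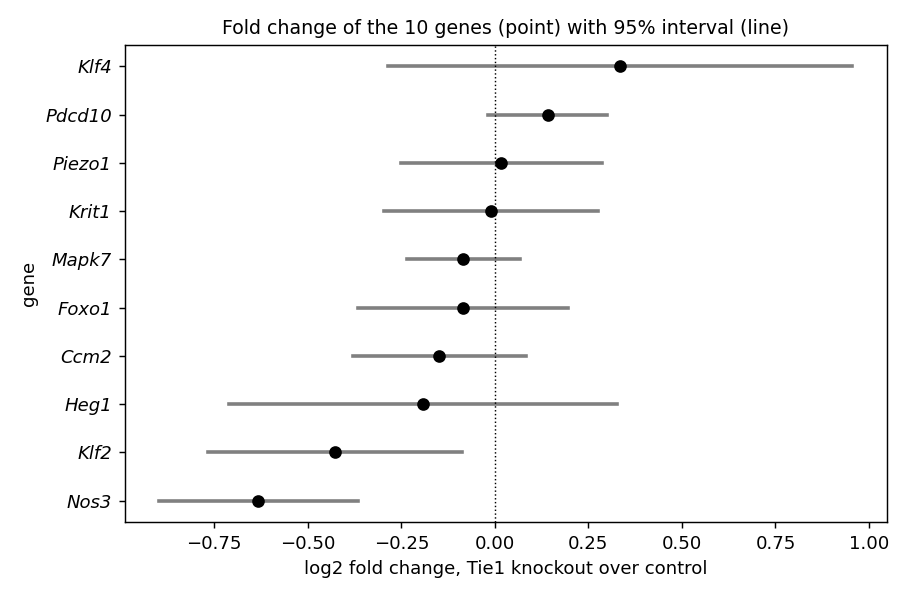
Log2 fold change of the 10 genes (x axis, Tie1 knockout over control) from the edgeR fit, with the 95% interval as a line. The intervals of Nos3 and Klf2 lie below 0, that of Klf4 is the widest at a fold of 0.820 to 1.94, and no gene passes the adjusted threshold.

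**Figure D4:**
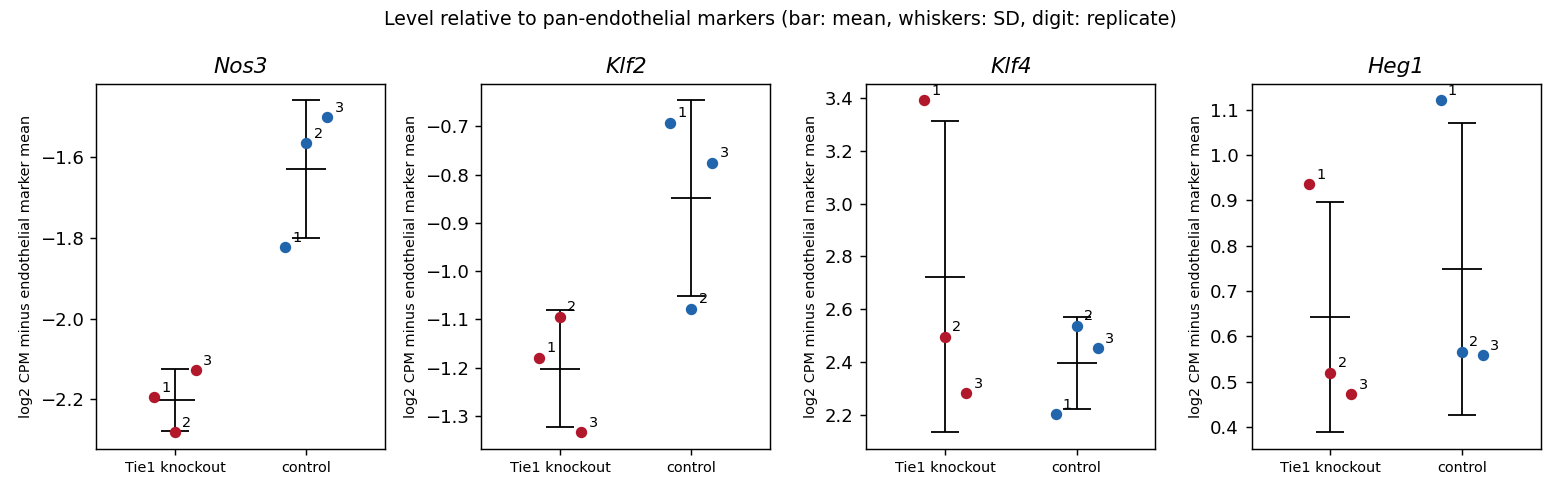
Log2 CPM of Nos3, Klf2, Klf4 and Heg1 minus the mean log2 CPM of 20 pan-endothelial markers (y axis, a range of its own in each panel), per library, with mean and SD. Nos3 stays separated (−2.28 to −2.13 in knockout, −1.82 to −1.50 in control), whereas Klf4 and Heg1 overlap.

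Relative to the pan-endothelial markers, Klf4 differed by 0.32 and Heg1 by −0.11 between knockout and control (exact permutation p = 0.5 for both, adjusted p = 0.5). For Klf4, knockout 1 was the highest library (3.39) and control 1 the lowest (2.21). For Heg1, control 1 (1.12) and knockout 1 (0.93) were the highest and knockout 3 the lowest (0.47). Since 3 against 3 libraries cannot give less than 0.1, none of the 4 comparisons could reach 0.05.

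Genes known to answer flow were then counted around the 10. Of 11 tested flow-induced genes 0 were called by edgeR, with 3 higher and 1 lower at an unadjusted p under 0.05 and a median log2 fold change of 0.038. Over all genes tested, edgeR called 0.16%, and 7.42% had an unadjusted p under 0.05 in either direction. These shares belong beside the counts of this list and of each list below. The lists were chosen with earlier results of these data known, and no list was tested as a set. Hmox1, the heme oxygenase, stood at 274, 236 and 272 CPM in knockout and 166, 124 and 110 CPM in control skin (log2 fold change 0.97, SE 0.15, edgeR adjusted p = 0.0995). Tsc22d3, a glucocorticoid-induced gene that flow also raises, stood at 0.50 (SE 0.11) and the water channel gene Aqp1 at 0.38 (SE 0.11), both in the opposite direction to Nos3 and Klf2, while Tmem100 stood at −0.42 (SE 0.13). Their edgeR adjusted p were 0.222, 0.402 and 0.462. DESeq2 called 2 of the 11, Hmox1 and Tsc22d3, and limma-voom called 0. Hmox1 also passed in edgeR fits with the hair follicle score (adjusted p = 0.0205) or the erythroid score (0.012), without both libraries numbered 1 (0.00157) and without control 1 (0.0291), and Aqp1 with the hair follicle score (0.0451).

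Among genes that steady flow holds down, 8 of 9 tested had a log2 fold change above 0, with a median of 0.35 against 0.0038 for all genes. Icam1 and Ace, counted among the 8, stood at only 0.0011 and 0.030. The list was chosen with earlier results of these data known, so the count and median are a description and were not tested. EdgeR called 1 gene of the list, Angpt2, the TIE2 ligand that FOXO1 drives. Angpt2 rose to 34.8, 36.4 and 36.3 CPM in knockout skin, against 18.4, 16.4 and 21.7 CPM in control skin (log2 fold change 0.93, SE 0.11, edgeR adjusted p = 0.0353). This call was lost when any 1 of the 6 libraries was left out (log2 fold change 0.83 to 1.03, edgeR adjusted p 0.0758 to 0.272), and with the immediate early score as a covariate the value was 0.76 (edgeR adjusted p = 0.845). Angpt2 also lost its call with the pan-endothelial score (0.96, edgeR adjusted p = 0.121) and the suprabasal score (0.95, 0.0829). It kept the call with the hair follicle score (0.94, 0.0139). Ccl2, a monocyte chemokine, stood at 3.14, 2.53 and 2.70 CPM in knockout and 1.23, 1.44 and 0.987 CPM in control skin (log2 fold change 1.19, SE 0.23, edgeR adjusted p = 0.155). Ctgf, a matricellular YAP target, stood at 0.61 (SE 0.12, edgeR adjusted p = 0.159). The 1 gene below 0 was Sele, the gene of E-selectin, with 0, 1.01 and 4.06 estimated reads in knockout and 21.0, 39.1 and 30.0 in control libraries (log2 fold change −4.06, SE 0.66, edgeR adjusted p = 0.0875). Sele passed in edgeR fits with the hair follicle score (adjusted p = 0.0336) and without both libraries numbered 1 (0.0195). DESeq2 called 4 of the 9, Angpt2, Sele, Ccl2 and Ctgf, and limma-voom called 1.

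**Figure D5:**
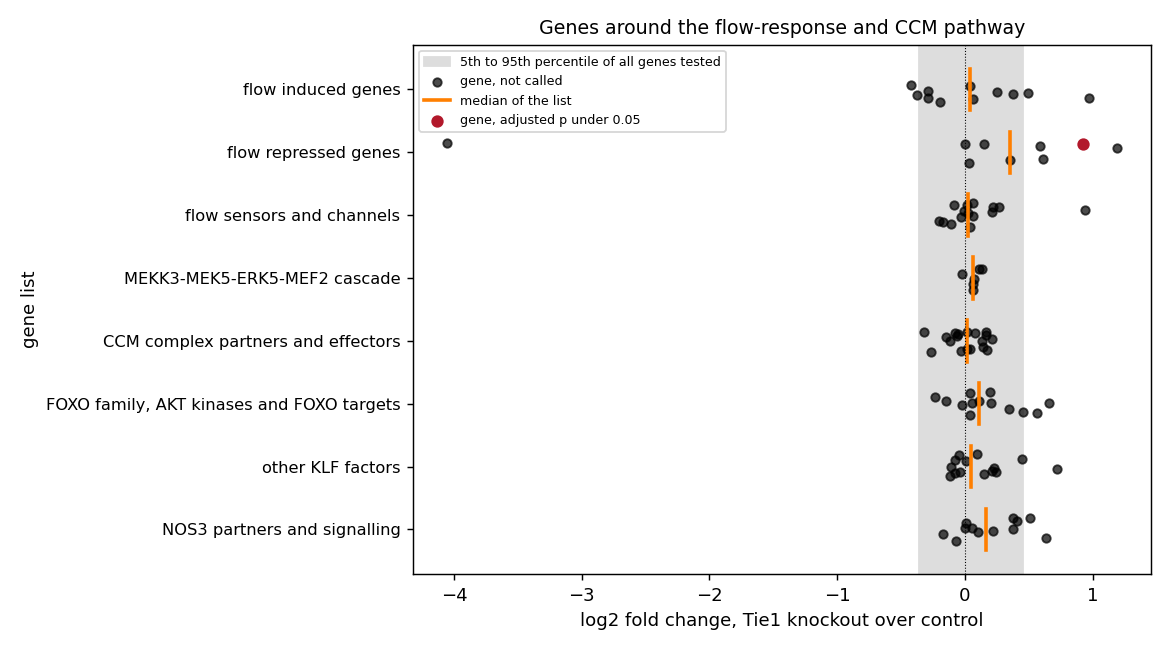
Log2 fold change (x axis, Tie1 knockout over control) of each tested gene in 8 lists around the pathway, with the list median in orange and the 5th to 95th percentile of all genes, −0.36 to 0.45, in grey. Angpt2 is the 1 called gene (red), and Sele is the point near −4.06.

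Other sensors and channels gave 0 calls of 15 tested (edgeR; 2 higher and 1 lower at an unadjusted p under 0.05, median log2 fold change 0.024). Kcnj2, which encodes the inward rectifier Kir2.1 that opens with shear, stood at 15.0, 13.9 and 17.4 CPM in knockout and 9.23, 7.92 and 7.01 CPM in control skin, and the groups did not overlap (log2 fold change 0.94, SE 0.14, edgeR adjusted p = 0.0794). Kcnj2 passed in the same 2 alternative edgeR fits as Sele (adjusted p = 0.036 and 0.0168). DESeq2 called it as the 1 gene of this list, and limma-voom called 0. Skeletal muscle also expresses Kcnj2, and 8 muscle markers summed to 8637 to 13978 CPM in knockout and 10588 to 11329 CPM in control skin. Pecam1, Plxnd1 and Kdr, which belong to the flow sensors of endothelial junctions, stood at 0.27 (SE 0.082), −0.20 (SE 0.085) and −0.17 (SE 0.075), with edgeR adjusted p of 0.447, 0.667 and 0.674.

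In the kinase cascade between sensors and KLF factors, 6 genes of the MEKK3, MEK5 and MEF2 steps were tested. EdgeR, DESeq2 and limma-voom each called 0 of them, an unadjusted p under 0.05 was reached by 0, and their log2 fold changes spanned −0.024 to 0.13. Mef2d and Mef2a, transcription factors of the class whose element lies before Klf2, stood at 0.11 (SE 0.057) and 0.13 (SE 0.095). Map3k2, which encodes MEKK2, and Map2k5, which encodes MEK5, stood at 0.069 (SE 0.070) and 0.063 (SE 0.068).

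Of 18 tested partners and effectors of the CCM complex, 0 were called by edgeR, DESeq2 or limma-voom, with 0 higher and 3 lower at an unadjusted p under 0.05 and a median log2 fold change of 0.015. Those 3 were Rasip1, Rap1a and Ccm2l. Rasip1, an endothelial RAS-interacting protein that works with HEG1 at junctions, stood at 28.9, 30.4 and 31.8 CPM in knockout and 38.5, 35.9 and 35.0 CPM in control skin, and the groups did not overlap (log2 fold change −0.26, SE 0.075, edgeR adjusted p = 0.402). Rap1a, the small GTPase that recruits KRIT1 to junctions, stood at −0.15 (SE 0.060), and Ccm2l, the endothelial paralog of Ccm2, at −0.32 (SE 0.14), with edgeR adjusted p of 0.642 and 0.663.

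In the list of FOXO factors, AKT kinases and FOXO targets, 10 of 13 tested genes had a log2 fold change above 0, the median was 0.11, and 0 were called by edgeR, DESeq2 or limma-voom, with 4 higher and 0 lower at an unadjusted p under 0.05. Those 4 were Pik3ip1 at 0.66 (SE 0.18), Irs2 at 0.46 (SE 0.16), Foxo3 at 0.35 (SE 0.095) and Insr at 0.19 (SE 0.079). Irs2 and Insr are insulin pathway genes that FOXO factors induce. Foxo3 stood at 139, 114 and 118 CPM in knockout and 90.2, 97.5 and 104 CPM in control skin, without overlap, whereas Foxo1 overlapped. The edgeR adjusted p of these 4 genes lay between 0.364 and 0.642.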

How the data were processed

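The authors deposited 1 estimated count per gene and library, per the file headers, without normalization: 31.0 to 31.9% of a library's values lay more than 0.001 away from whole. Per the submitters' processing notes the tools were RSEM 1.2.12, Bowtie2 2.2.5 and HISAT2 2.0.4, on build GRCm38.p6, without roles. RSEM-type estimates share reads between similar genes by a model. Estimated counts were rounded, filtered with filterByExpr (minimum count 10) and scaled by TMM, leaving 15035 of 19131 genes. Groups were compared in edgeR 4.0.16 (R 4.3.3) with the robust quasi-likelihood test, genotype as its single term. P-values were adjusted by Benjamini-Hochberg across the 15035 genes, and under 0.05 a gene is called. The standard error is the log2 fold change divided by the square root of F, and 95% intervals use the fit's degrees of freedom. Log2 CPM used a prior count of 2.

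The 10 genes and all gene lists were chosen with earlier results of these data known. Named genes were Tie1, the 10 genes, up to 4 genes with the smallest p of each pathway list, and the 3 genes nearest in profile to Klf2, Klf4 and Nos3. Immediate early genes, the score built from them and the erythroid score were added after seeing the data. Alternatives were RLE scaling, no filter, DESeq2 1.42.0, limma-voom 3.58.1, the replicate block, marker scores as covariates, and leaving out libraries. The edgeR step was tested on simulated data. The 95% intervals include the spread between libraries. Positions, promoter sequences and overlaps come from RefSeq (GRCm38.p6), and transcript lengths from GENCODE M21 on GRCm38.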

Additional observations from a re-analysis of the deposited data

How the results depend on the processing

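Under 18 alternatives Nos3, Klf2, Mapk7, Ccm2 and Pdcd10 kept their direction, and no edgeR or limma-voom fit called any of the 10 genes. DESeq2 called 1 of them, Nos3. The number of genes called over the whole table, 24, was 38 with no filter on low counts, 207 with DESeq2, 15 with limma-voom, 8 with the pan-endothelial or the suprabasal epidermis score as a covariate, 116 with the hair follicle score, 3 with the posterior Hox score, 2 with the immediate early score, 139 without both libraries numbered 1, and 1 (without knockout 2) to 11 (without knockout 1) with 1 library left out. The replicate block gave 52 calls, 22 of them among the 24, and called 0 of the 10 genes. With the block the SE fell from 0.115 to 0.060 for Piezo1, from 0.120 to 0.064 for Foxo1 and from 0.215 to 0.091 for Heg1. The block SE was slightly larger than without it for Klf2, Mapk7 and Pdcd10. The blocked log2 fold changes were 0.017 for Piezo1, −0.083 for Foxo1 and −0.16 for Heg1. Deviations of same-numbered libraries correlated at 0.41, 0.043 and 0.27. Knockout 1 and knockout 3 each correlated best with the control of their own number, but knockout 2 with control 3 (0.18), so the numbers were not taken as pairs. Hair follicle markers rose with the number in both groups, to sums of 213, 362 and 405 CPM in knockout and 211, 379 and 507 CPM in control skin. Tie1 stayed between −4.61 and −4.02 and missed the edgeR threshold without knockout 2 (adjusted p = 0.0559) and with the posterior Hox score (0.0505). The log2 fold changes of Klf4, Heg1, Piezo1, Krit1 and Foxo1 changed sign. Klf4 was −0.17 with the immediate early score and −0.080 without both libraries numbered 1. Piezo1 was −0.023, −0.12 and −0.0025 with the hair follicle, posterior Hox and immediate early scores. Krit1 was 0.0024, 0.0065 and 0.23 with the suprabasal, hair follicle and immediate early scores and 0.065 without both libraries numbered 1. Foxo1 was 0.11 with the posterior Hox score and Heg1 0.054 with the erythroid score. With 1 library left out, the ranges were −0.031 to 0.51 for Klf4, −0.073 to 0.12 for Piezo1, −0.13 to 0.093 for Krit1, −0.18 to 0.0047 for Foxo1 and −0.33 to 0.079 for Heg1, and relative to the pan-endothelial markers −0.0087 to 0.54 for Klf4 and −0.25 to 0.080 for Heg1. The causes were not tested. With 3 libraries a group, the 95% intervals of the folds spanned 0.820 to 1.94 for Klf4 and 0.611 to 1.25 for Heg1. Those of Ccm2 and Mapk7 reached down to 0.769 and 0.849, and that of Pdcd10 up to 1.23, so folds within them remained compatible with the data.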

Other observations

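Among 12 tested genes of nitric oxide production and its downstream signalling, 0 were called by edgeR, DESeq2 or limma-voom, 3 were higher and 0 lower at an unadjusted p under 0.05, and 10 lay above 0, with a median log2 fold change of 0.16. The other synthase genes stood above 0 while Nos3 stood below it. Nos1 was at 9.54, 9.57 and 12.1 CPM in knockout and 8.44, 7.53 and 8.05 CPM in control skin (log2 fold change 0.38, SE 0.14, edgeR adjusted p = 0.552). Nos2, the inducible synthase of macrophages, stood at 0.64 (SE 0.24, edgeR adjusted p = 0.599). Gucy1a1, a subunit of the nitric oxide receptor guanylate cyclase of smooth muscle and pericytes, stood at 37.7, 46.0 and 44.2 CPM in knockout and 35.9, 30.2 and 32.4 CPM in control skin, without overlap (log2 fold change 0.38, SE 0.10, edgeR adjusted p = 0.375). Gucy1a1 passed without both libraries numbered 1 (adjusted p = 0.0272). Nostrin, which moves NOS3 away from the membrane, stood at 0.51 (SE 0.22, edgeR adjusted p = 0.671).

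Of 14 other KLF factors tested, 0 were called by edgeR, DESeq2 or limma-voom, and 1 was higher and 0 lower at an unadjusted p under 0.05. This was Klf6, at 153, 159 and 146 CPM in knockout and 123, 131 and 141 CPM in control skin (log2 fold change 0.21, SE 0.073, edgeR adjusted p = 0.536). Klf15, Klf5 and Klf9 stood at 0.45 (SE 0.22), 0.24 (SE 0.15) and 0.23 (SE 0.15). The immediate early genes all had a log2 fold change above 0 (12 of 12, median 0.31), 5 of them at an unadjusted p under 0.05 and 0 called by edgeR or limma-voom and 2, Junb and Fos, by DESeq2.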
